A study of Mus musculus with 16 samples.

Results

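The 9 genes described here, Fos, Jun, Junb, Egr1, Ier2, Ier3, Klf6, Klf10 and Myc, belong to the immediate early response of mammalian cells. They were chosen by symbol and make up 9 of the 27288 genes in the deposited table. All 9 had a mean of at least 10 normalised reads over the 16 libraries and were among the 13256 genes tested. Ier3 codes for a regulator of cell survival that is not itself a DNA-binding factor, so the group is not made up of transcription factors alone.

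RNA sequencing had been done on whole liver of C57BL/6 mice aged 8 to 10 weeks, in 4 groups of 4 libraries. The groups were L-Dnm1l KO mice given EtOH, L-Dnm1l KO mice on the Control treatment, WT mice given EtOH, and WT mice on the Control treatment. The Control treatment is called control diet below, and any gavage of the control mice is not described here. L-Dnm1l KO stands for deletion of DRP1, the dynamin-related GTPase that divides mitochondria, in the liver. Ethanol was given by the Gao-Binge model, in which a period of ethanol in the diet is followed by a single large dose by gavage. The promoter that drove the deletion, the part of Dnm1l removed, the time of tissue collection and whether each library came from a separate mouse are not stated in the labels, so p-values measure the spread between these libraries only. Values below are normalised reads, that is reads of a gene divided by the size factor of its library.

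Immediate early genes are transcribed within minutes of a stimulus, without new protein synthesis, from promoters bound beforehand by SRF with its ternary complex partners and by CREB. Their messages are short-lived, so a level read at a single time reflects how recently a cell was stimulated as well as how strongly. In liver they are known for their induction by partial hepatectomy, growth factors, cytokines, oxidants and the handling of tissue, and they are expressed by hepatocytes and by the other cells of the organ. In whole tissue, fewer cells of a type and less RNA per cell cannot be told apart.

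Total reads per library were 11425136 to 13864862, and size factors ran from 0.81 to 1.26. Hepatocyte markers were abundant in every library (summed values 980600 to 1502000 in knockout ethanol libraries, 1118000 to 1173000 in knockout controls, 1274000 to 1632000 in wild-type ethanol libraries and 1401000 to 1656000 in wild-type controls), so the labelled tissue was matched by its markers. Dnm1l as a whole averaged 803 ± 99.3 in knockout and 743 ± 38.4 in wild-type ethanol libraries, and 642 ± 72.7 in knockout and 663 ± 56.2 in wild-type controls (SD, n = 4 each), so the gene total gives no check of the genotype labels. Library 1 of the knockout ethanol group held 2563 normalised reads of the pancreatic protease precursor Ctrb1, against at most 4.81 in any other library. Library 4 of that group held 1506 of the globin Hba-a1, against at most 418 elsewhere, and both libraries held some reads of the adipocyte gene Adipoq (9.84 and 18.3, against 0 in the other 14). For the immediate early genes chosen by symbol, results for knockout ethanol livers are therefore also given without libraries 1 and 4 where that ends a call. The calls of other genes named below were not tested in this way. Over all genes tested, leaving these libraries out took the calls between genotypes after ethanol from 1310 to 496. Those on ethanol in knockout livers went from 2543 to 1003.

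The promoter windows of the 4 members that were called higher on ethanol in both genotypes and have a window in the RefSeq table (GRCm38.p6) are printed here, so that the letters around the start of genes that rose together can be read. Each window runs from 250 bases before to 50 bases after the gene start, 5′ to 3′ on the gene's own strand. Capitals mark matches on either strand to TGACG (the core of the cyclic AMP response element), TGACNTCA (a CRE-like site, added to the search after the windows had been seen), TGAGTCA (the AP-1 site), GCGNGGGCG (the EGR site), GGGCGG (the GC box), TATAAA or CACGTG (the E-box), and to the CArG box of SRF. The Fos window lies at chr12:85473640-85473939 on the plus strand, the Jun window at chr4:95052173-95052472 on the minus strand, the Ier3 window at chr17:35821463-35821762 on the plus strand and the Klf6 window at chr13:5861239-5861538 on the plus strand.
Fos: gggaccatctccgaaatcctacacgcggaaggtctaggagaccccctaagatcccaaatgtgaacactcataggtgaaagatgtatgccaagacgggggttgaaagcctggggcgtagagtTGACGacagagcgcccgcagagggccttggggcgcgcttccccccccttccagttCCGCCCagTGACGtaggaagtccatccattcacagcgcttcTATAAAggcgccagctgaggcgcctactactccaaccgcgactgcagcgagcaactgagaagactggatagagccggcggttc
Jun: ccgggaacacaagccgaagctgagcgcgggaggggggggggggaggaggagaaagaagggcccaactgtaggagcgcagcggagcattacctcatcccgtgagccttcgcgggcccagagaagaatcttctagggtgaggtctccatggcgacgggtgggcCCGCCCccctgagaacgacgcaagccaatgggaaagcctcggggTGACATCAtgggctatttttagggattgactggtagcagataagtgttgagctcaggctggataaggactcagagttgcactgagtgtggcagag
Ier3: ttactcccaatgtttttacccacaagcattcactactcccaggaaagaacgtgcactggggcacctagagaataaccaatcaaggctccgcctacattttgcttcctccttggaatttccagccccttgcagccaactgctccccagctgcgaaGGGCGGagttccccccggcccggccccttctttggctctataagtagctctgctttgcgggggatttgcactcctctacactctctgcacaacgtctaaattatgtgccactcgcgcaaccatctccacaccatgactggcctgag
Klf6: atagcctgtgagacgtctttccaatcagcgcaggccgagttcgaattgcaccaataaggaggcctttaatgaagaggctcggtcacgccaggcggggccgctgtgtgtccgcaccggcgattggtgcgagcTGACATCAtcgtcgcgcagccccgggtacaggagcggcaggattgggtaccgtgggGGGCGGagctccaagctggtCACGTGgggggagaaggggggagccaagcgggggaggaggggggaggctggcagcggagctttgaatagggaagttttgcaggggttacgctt
In the Fos window TGACG began at positions -129 and -66 from the gene start, the reverse of the GC box at -74 and TATAAA at -33. Jun and Klf6 both held TGACATCA, at -45 and -119, each with a GC box, and Klf6 held CACGTG at -43. The Ier3 window held only a GC box, at -96. No window of the 5 members in the table held a match to the CArG box, TGAGTCA or GCGNGGGCG. Among all 32851 windows of the table, TGACG was present in 20.8%, TGACNTCA in 8.83%, TGAGTCA in 5.2%, GCGNGGGCG in 5.55%, GGGCGG in 35.7%, TATAAA in 13.6%, CACGTG in 7.15% and the CArG box in 1.63%. TGACG and TGACNTCA overlap when N is G. These are matches of letters within a short window, and the CArG boxes of such genes often lie further upstream than the window reaches.

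After ethanol most of the 9 genes stood higher in livers of both genotypes. In knockout livers 6 of 9 were called higher on ethanol than on control (Fos, Jun, Egr1, Ier2, Ier3 and Klf6) and 0 lower, where 10.2% of all genes tested were called higher and 9.01% lower. In wild-type livers 8 of 9 were called higher, all but Junb, and 0 lower, where 18.9% of all genes tested were called higher and 19% lower. The median difference of the 9 genes was 1.55 in knockout and 2.57 in wild-type livers on the log2(value + 1) scale, beside -0.01 in either genotype over all genes tested. A call here is a Benjamini-Hochberg adjusted p below 0.05 from limma, adjusted over the 13256 genes. The ethanol and control libraries did not overlap for 7 of 9 genes in knockout livers (11.7% of all genes lay apart with ethanol higher) and for 5 of 9 in wild-type livers (17.7% of all genes).

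**Figure D1:**
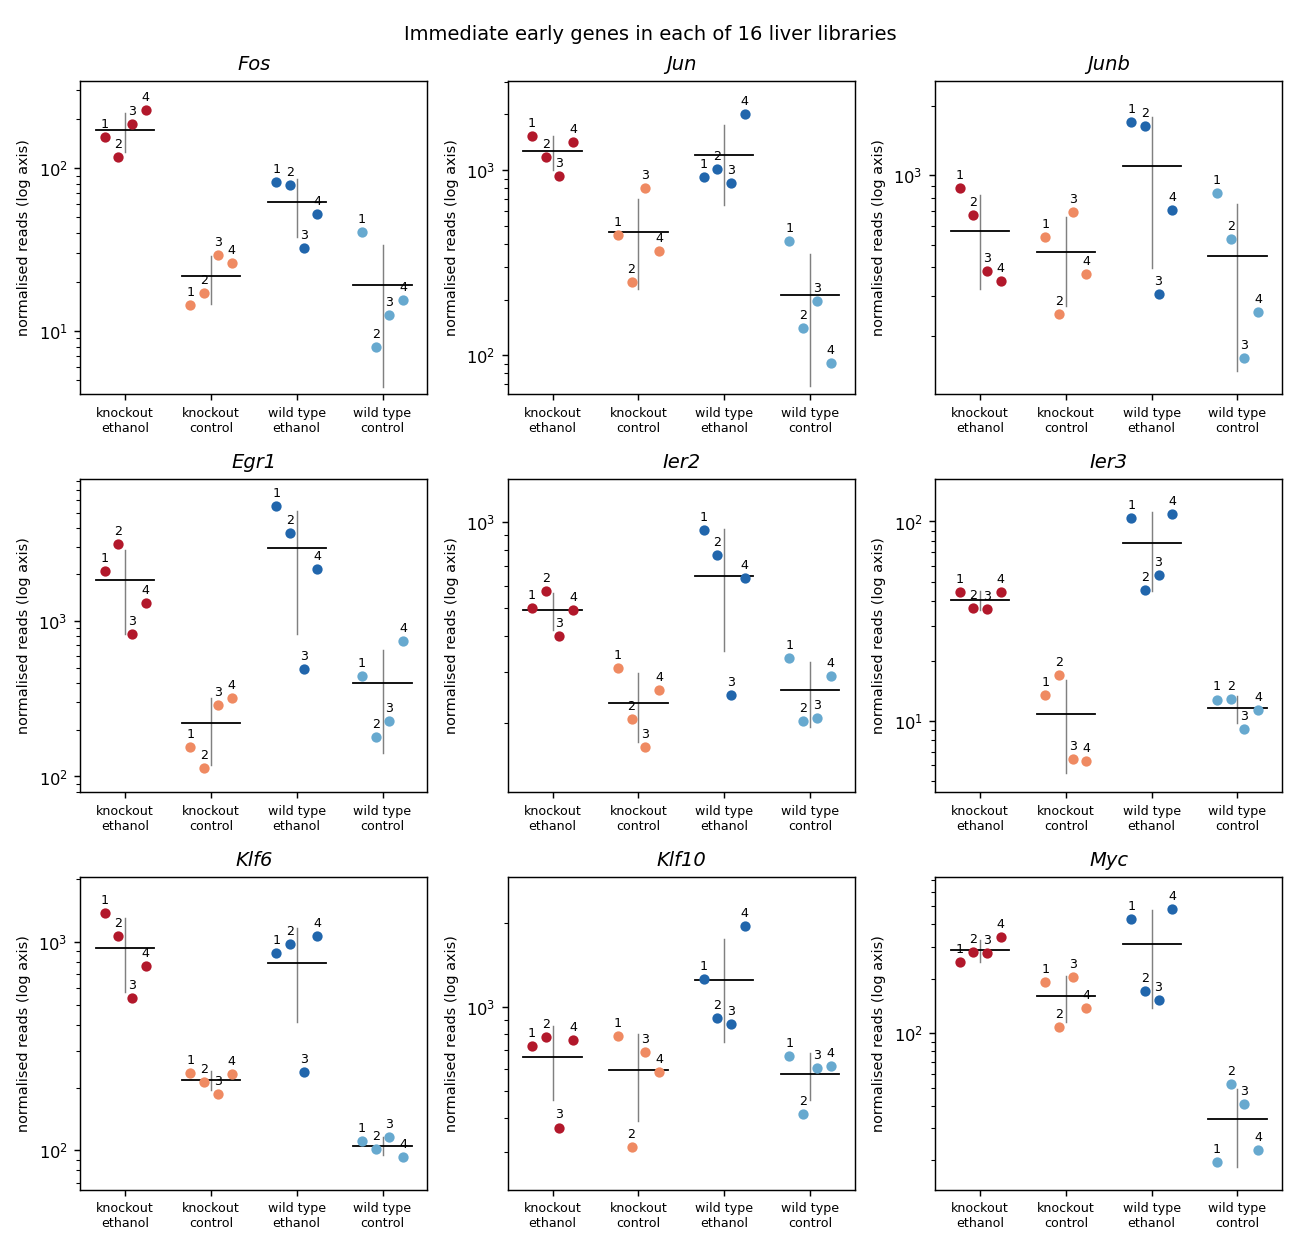
Normalised reads of each of the 9 genes in each library (points with the library number, 4 per group, logarithmic axis) with the group mean (black bar) and SD (grey line), groups in the order knockout ethanol, knockout control, wild-type ethanol, wild-type control. Fos is highest in the 4 knockout ethanol libraries, Myc is lowest in the 4 wild-type controls, and Egr1 in wild-type ethanol libraries spreads from 489.5 to 5494.

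Fos, the partner that the JUN proteins need to form the classical AP-1 dimer, had 155, 117, 185 and 228 normalised reads in the 4 knockout ethanol libraries and 14.5, 17.0, 29.5 and 26.1 in the knockout controls. Every knockout ethanol library lay above every knockout control. The difference was 2.94 on the log2 scale (SE 0.40, 7.65-fold, limma adjusted p = 0.000144). In wild-type livers Fos had 82.3, 79.2, 32.5 and 52.2 on ethanol and 40.4, 7.95, 12.5 and 15.6 on control. Library 3 of the ethanol group fell below library 1 of the controls, so these groups overlapped, and the difference was 1.79 (SE 0.40, 3.46-fold, limma adjusted p = 0.0022), which was not called with ethanol libraries 3 and 4 only (1.32, adjusted p = 0.0725).

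Fos was the member with a called difference between genotypes after ethanol: 1 of 9 was called higher in knockout livers, beside 6.13% of all genes, and 0 of 9 lower, beside 3.75%. It averaged 171.6 ± 46.8 in knockout and 61.6 ± 23.6 in wild-type ethanol libraries (SD, n = 4 each), a difference of 1.51 on the log2 scale (SE 0.40, 2.85-fold, limma adjusted p = 0.023), and all 4 knockout libraries lay above all 4 wild-type libraries. The call was lost without libraries 1 and 4 of the knockout group (1.34, adjusted p = 0.198) and with libraries 1 and 2 of each ethanol group alone (0.74, adjusted p = 0.464). It was also lost without knockout library 3 (adjusted p = 0.0633), knockout library 4 (adjusted p = 0.0753) or wild-type library 3 (adjusted p = 0.0535). On control diet Fos averaged 21.8 ± 7.15 in knockout and 19.1 ± 14.6 in wild-type livers and was not called (0.37, adjusted p = 0.613). The ethanol effect on Fos was larger in knockout livers by 1.14, which was not called (limma adjusted p = 0.40).

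Markers of Kupffer cells and macrophages, which express Fos themselves, moved with the genotype. In knockout ethanol livers 12 of 12 were called higher than in wild-type ethanol livers, beside 6.13% of all genes. The summed level of these markers ran from 6122 to 7848 in knockout ethanol libraries and from 1109 to 1642 in wild-type ethanol libraries. On control diet it ran from 7102 to 11400 in knockouts and from 3013 to 6893 in wild types. There 7 of 12 were called higher in knockouts, beside 6.4% of all genes. On ethanol relative to control, 2 of these markers were called lower in knockout livers, beside 9.01% of all genes. In wild-type livers 10 of 12 were called lower, beside 19% of all genes, while Fos was called higher in both genotypes. Clec4f, which marks Kupffer cells, had 846.8 to 1232 in knockout and 226.7 to 334.1 in wild-type ethanol libraries, and no marker of the list was at 0 in a whole group. Neutrophil markers summed to 36.6 to 129 in knockout and 28.8 to 122 in wild-type ethanol libraries, with 0 of 3 tested called by limma, and sinusoidal endothelial markers to 1676 to 2081 in knockout and 1903 to 2295 in wild-type ethanol libraries, with 0 of 6 called. The part of these cells in the Fos difference was not tested.

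Jun, the AP-1 subunit that can also pair with itself, had 1528, 1175, 934 and 1426 in knockout ethanol libraries and 444, 249, 799 and 366 in knockout controls. Every ethanol library lay above every control, with a difference of 1.55 (SE 0.40, 2.93-fold, limma adjusted p = 0.0126). Jun no longer passed when libraries 1 and 4 of the knockout ethanol group were left out (limma adjusted p = 0.138). It also did not pass with the ethanol groups cut to libraries 3 and 4 (adjusted p = 0.115) or, narrowly, without knockout control 2 (adjusted p = 0.0502). In wild-type livers Jun had 920, 1011, 855 and 2021 on ethanol and 413, 141, 197 and 90.3 on control, again with no overlap. The difference there was 2.64 (SE 0.40, 6.24-fold, limma adjusted p = 0.000102). Between genotypes Jun differed by 0.14 after ethanol (adjusted p = 0.872) and by 1.24 on control diet (adjusted p = 0.0548), and neither passed the test. The control-diet difference passed without knockout control 2 (adjusted p = 0.0354) or wild-type control 1 (adjusted p = 0.0109).

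Junb, a JUN relative that can restrain Jun, had 880, 670, 386 and 347 in knockout ethanol libraries and 540, 249, 694 and 373 in knockout controls. The groups overlapped, with ethanol library 1 above every control and control 2 below every ethanol library, and were not called apart (0.30, SE 0.55, adjusted p = 0.739). In wild-type livers it had 1714, 1643, 305 and 710 on ethanol and 839, 531, 160 and 255 on control. Ethanol libraries 1 and 2 exceeded all controls, library 3 lay below controls 1 and 2, library 4 lay below control 1, and the difference of 1.26 was not called (SE 0.55, limma adjusted p = 0.0794). Without wild-type ethanol library 3 it was called (1.78, adjusted p = 0.0107), as it was without wild-type control 1 (adjusted p = 0.0307). Between genotypes Junb differed by -0.74 after ethanol (adjusted p = 0.446) and was not called. Junb overlaps Prdx2 on the opposite strand, which averaged 1073 normalised reads, and Jun overlaps the antisense gene Junos, which averaged 10.9. The strand setting is not given in the sources used here, so reads of Junb and Prdx2 in the shared stretch cannot be told apart.

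Egr1, a zinc finger factor downstream of ERK and SRF, had 2096, 3151, 824 and 1308 in knockout ethanol libraries and 154, 114, 290 and 321 in knockout controls. The groups did not overlap, and the difference of 3.02 (SE 0.63, 8.09-fold, limma adjusted p = 0.00352) was the largest estimate of the 9 in knockout livers. In wild-type livers it had 5494, 3710, 490 and 2156 on ethanol and 446, 179, 227 and 742 on control. Ethanol library 3 lay inside the control range and the other 3 lay above it, with a difference of 2.66 (SE 0.63, 6.31-fold, limma adjusted p = 0.00338). Egr1 in wild-type livers was not called with ethanol libraries 3 and 4 only (1.59, adjusted p = 0.0902). Egr1 averaged 1845 ± 1016 in knockout and 2962 ± 2139 in wild-type ethanol livers (SD, n = 4 each), a difference of -0.40 that was not called (adjusted p = 0.756).

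Ier2, a nuclear protein that acts on transcription, had 503, 574, 401 and 492 in knockout ethanol libraries and 310, 207, 165 and 260 in knockout controls. All 4 ethanol libraries lay above the controls (1.09, SE 0.31, 2.13-fold, limma adjusted p = 0.0217). Ier2 no longer passed once knockout ethanol libraries 1 and 4 were left out (adjusted p = 0.127), when the ethanol groups were cut to libraries 3 and 4 (adjusted p = 0.0951), or without knockout ethanol library 1 (adjusted p = 0.0503) or 2 (adjusted p = 0.0623) or knockout control 2 (adjusted p = 0.058) or 3 (adjusted p = 0.0537). In wild-type livers Ier2 had 939, 768, 250 and 636 on ethanol and 337, 203, 209 and 291 on control. Library 3 was again the one inside the control range, and the difference was 1.19 (SE 0.31, 2.29-fold, limma adjusted p = 0.00641). With ethanol libraries 3 and 4 only, Ier2 in wild-type livers was not called (0.65, adjusted p = 0.188).

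Ier3, the survival regulator, had 44.3, 36.8, 36.4 and 44.3 in knockout ethanol libraries and 13.5, 17.0, 6.45 and 6.30 in knockout controls. It rose by 1.92 (SE 0.32, 3.78-fold, limma adjusted p = 0.000791), with no overlap. In wild-type livers it had 104, 45.4, 53.9 and 109 on ethanol and 12.8, 12.9, 9.07 and 11.4 on control, also with no overlap, and rose by 2.57 (SE 0.32, 5.92-fold, limma adjusted p = 2.02e-05). After ethanol all 4 knockout libraries lay below all 4 wild-type libraries, yet the difference of -0.84 was not called by limma (SE 0.32, adjusted p = 0.116), though it was by DESeq2 (adjusted p = 0.0259). Ier3 and Klf10 were the 2 of 9 genes lying apart in that direction, where 7.38% of all genes did. Fos was the 1 of 9 lying apart with knockouts higher, where 8.36% of all genes did.

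Klf6, a zinc finger factor of the KLF family, had 1372, 1072, 539 and 763 in knockout ethanol libraries and 234, 212, 186 and 233 in knockout controls. It rose by 2.03 (SE 0.36, 4.08-fold, limma adjusted p = 0.00125), and each ethanol library was above each control. In wild-type livers it had 883, 981, 237 and 1069 on ethanol and 110, 101, 116 and 92.4 on control. Library 3 was the lowest of the ethanol group and still above every control, and the difference was 2.70 (SE 0.36, 6.49-fold, limma adjusted p = 3.55e-05). On control diet all 4 knockout libraries exceeded all 4 wild-type libraries without passing the test (1.04, adjusted p = 0.0749), which was passed when only these 2 groups were fitted (adjusted p = 0.000932) and with DESeq2 (adjusted p = 0.0206); Klf6 and Myc were the 2 of 9 genes lying apart in this direction, where 8.68% of all genes did.

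Klf10, a KLF factor first known as a gene induced by TGF-beta, had 725, 780, 368 and 757 in knockout ethanol libraries and 786, 314, 691 and 583 in knockout controls. The groups overlapped and were not called apart (0.17, SE 0.30, adjusted p = 0.736). In wild-type livers it had 1257, 912, 870 and 1959 on ethanol and 666, 412, 605 and 611 on control, with no overlap, and rose by 1.07 (SE 0.30, 2.09-fold, limma adjusted p = 0.011). After ethanol every knockout library lay below every wild-type library, a difference of -0.91 that was not called (SE 0.30, limma adjusted p = 0.0691). With the library number as a block it was called (-0.91, adjusted p = 0.0438), and it was called without wild-type ethanol library 3 as well (adjusted p = 0.0405) and by DESeq2 (adjusted p = 0.021).

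Myc, the helix-loop-helix factor that drives ribosome production and growth, set the genotypes apart on control diet. It had 193, 108, 205 and 139 in knockout controls and 19.7, 52.7, 40.8 and 22.8 in wild-type controls. The lowest knockout library was above the highest wild-type library, and the difference was 2.27 (SE 0.36, 4.84-fold, limma adjusted p = 0.000598). Myc was the 1 of 9 genes called higher in knockout controls, where 6.4% of all genes were called higher; 0 of 9 were called lower, where 5.24% of all genes were.

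After ethanol Myc had 246, 281, 278 and 339 in knockout and 424, 171, 153 and 486 in wild-type libraries. The wild-type libraries lay on both sides of the knockout ones, and the difference of 0.07 was not called (adjusted p = 0.94). Ethanol raised Myc in wild-type livers by 3.07 (SE 0.36, 8.39-fold, limma adjusted p = 1.05e-05), the largest difference of the 9 genes in that genotype. In knockout livers all 4 ethanol libraries exceeded all 4 controls, by 0.86 (SE 0.36), and the test was not passed (limma adjusted p = 0.104) unless only these 2 groups were fitted (adjusted p = 0.0128). The ethanol effect was smaller in knockout livers by 2.21 (SE 0.51, unadjusted p = 0.000463), which was not called in the limma fit (adjusted p = 0.0741) and was called by DESeq2 on the whole reads (-2.35, adjusted p = 0.00106) and by limma without wild-type ethanol library 3 (adjusted p = 0.0236).

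For the difference between the 2 ethanol effects limma called 0 of 9 genes, beside 0.347% of all genes tested. At an unadjusted p below 0.05 the count was 1, Myc, beside 13.4% of all genes tested. By edgeR 0 of the 9 were called, with 30 of all genes, and by DESeq2 1, with 265 of all genes. The differences ran from -2.21 for Myc to 1.14 for Fos, with a median of -0.67.

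**Figure D2:**
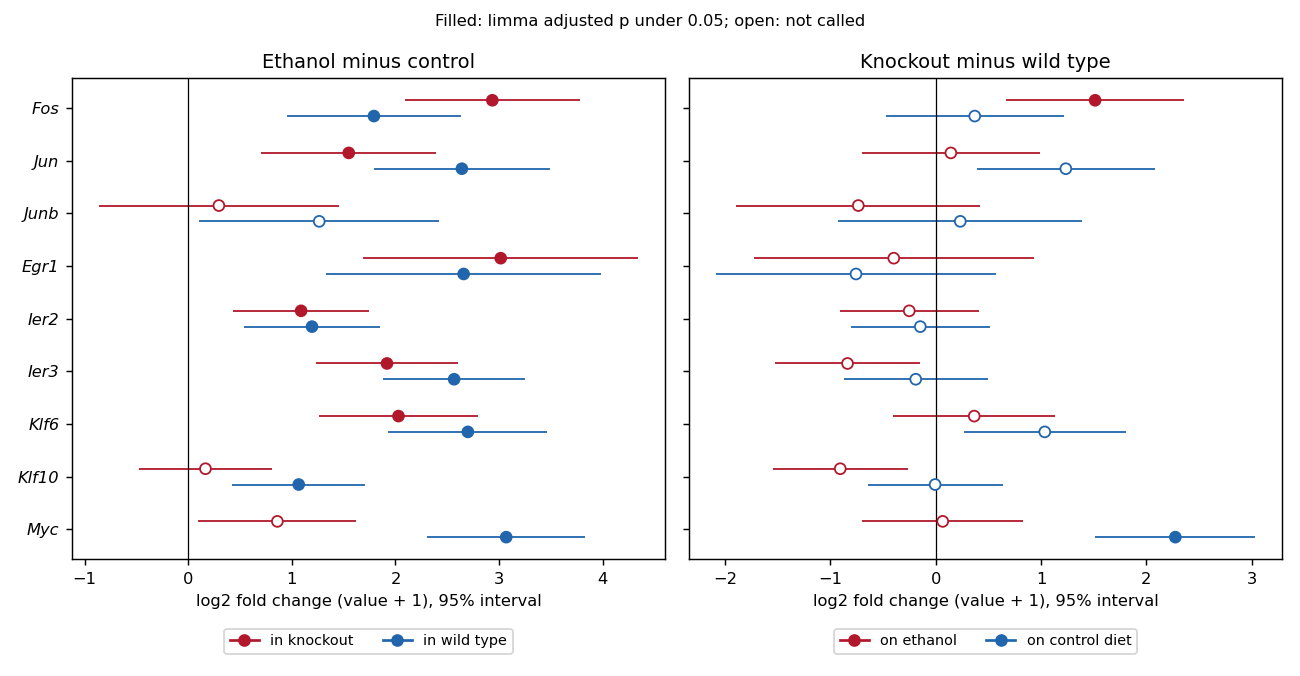
Differences on the log2(value + 1) scale for the 9 genes in each comparison, with bars of 95% confidence from the limma fit; filled points passed an adjusted p of 0.05. The ethanol differences lie right of 0 for all 9 genes in both genotypes, and between genotypes only Fos on ethanol and Myc on control diet are filled.

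Per kilobase of annotated exon, Egr1 and Jun were the most abundant members in knockout ethanol livers (411 and 397 normalised reads per kb), followed by Ier2 (324), Junb (248), Klf6 (213), Klf10 (157), Myc (105), Fos (73) and Ier3 (35.7). In wild-type ethanol livers the order began with Egr1 (661), Junb (475), Ier2 (426) and Jun (377) and ended with Myc (114), Ier3 (69.1) and Fos (26.2). In wild-type controls Junb (194), Ier2 (171) and Klf10 (137) led, ahead of Egr1 (88.8) and Jun (66), and Myc (12.5), Ier3 (10.2) and Fos (8.12) were lowest. Knockout controls began with Junb (202), Ier2 (155), Jun (146) and Klf10 (142), whose library ranges overlapped. Egr1, Jun, Ier2 and Junb had neighbouring levels in ethanol livers of both genotypes that differed by less than the spread between libraries.

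Libraries of the ethanol groups differed from each other in these genes more than in most others. In wild-type ethanol livers the median SD of the 9 genes on the log2 scale was 0.84 (range 0.54 to 1.53), against 0.24 over all genes tested, and all 9 lay above the upper quartile of all genes, 0.41. In knockout ethanol livers it was 0.40 (range 0.15 to 0.84), against 0.19, and 6 of 9 lay above the upper quartile, 0.31. Egr1 had the widest spread in both ethanol groups, with a highest library 3.82 times the lowest in knockout and 11.2 times in wild-type livers. In the knockout ethanol group Ier3 (1.21 times), Myc (1.38 times) and Ier2 (1.43 times) varied least. Control libraries were spread as well, with a median SD of 0.58 in knockout controls and 0.65 in wild-type controls, against 0.25 and 0.18 over all genes. The spread was wider in wild-type ethanol than in wild-type control libraries for 7 of 9 genes, and for 64.9% of all genes tested. It was wider in knockout ethanol than in knockout control libraries for 2 of 9, and for 36.6% of all genes. For 0 of 9 genes was it wider in knockout than in wild-type ethanol libraries, where it was so for 35% of all genes; no test of spread was made.

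**Figure D3:**
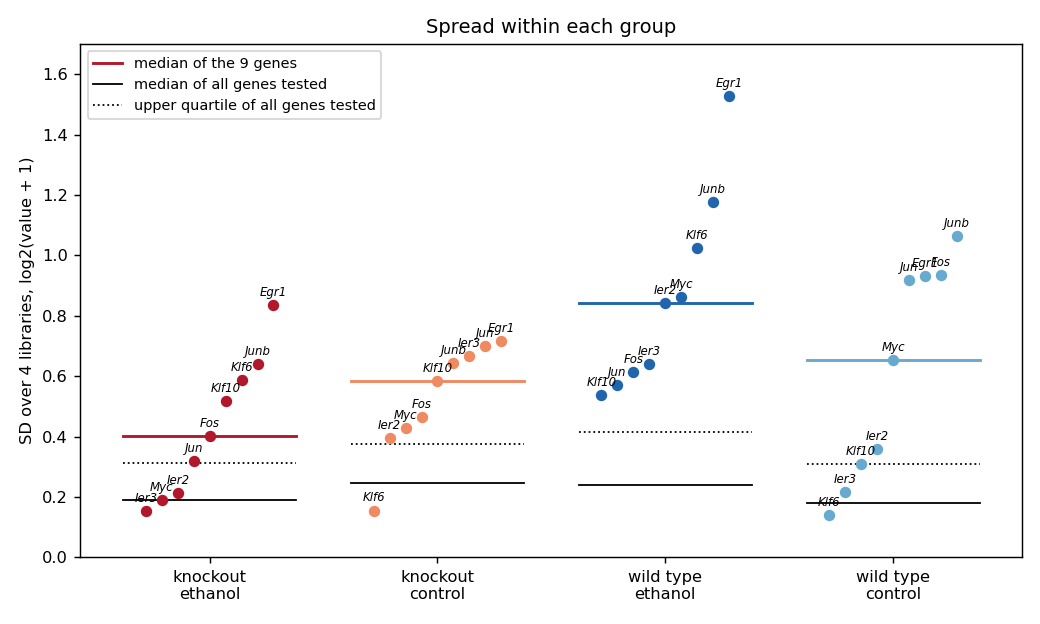
SD over 4 libraries on the log2(value + 1) scale for each of the 9 genes in each group, with the median and upper quartile of the 13256 genes tested. All 9 genes lie above the upper quartile in wild-type ethanol livers, and Ier3 and Myc lie below the all-gene median in knockout ethanol livers.

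The spread followed the library. Wild-type ethanol library 3 held the lowest value of its group for 8 of 9 genes, all but Ier3, and was above the group mean for 0 of 9, with a median deviation of -0.82. Wild-type ethanol libraries 1 and 4 held the highest values for 4 and 5 of 9 genes. In the knockout ethanol group library 3 was also the lowest, for 6 of 9 genes, with a median deviation of -0.41. Over all genes tested the median deviation of wild-type ethanol library 3 was -0.01, and its median absolute deviation was 0.18, beside 0.14 to 0.17 in the other 3 libraries of its group. The median deviation lay between -0.01 and 0.01 in every library, so it says little about library 3. The mean chi-square per gene between libraries of a group ran from 14.2 to 118 in wild-type ethanol and 10.9 to 27.3 in wild-type controls. It ran from 11.8 to 36.1 in knockout ethanol and 15.6 to 67.4 in knockout controls. Wild-type ethanol libraries thus also differed over all genes. Low values in library 3 were not limited to the 9 genes, and the pattern was not tested. The 43 other immediate early genes listed, 39 of them tested below, summed to 66270, 59360, 28670 and 48250 in wild-type ethanol libraries 1 to 4. In knockout ethanol libraries they summed to 45920, 44920, 23520 and 32280. The AP-1 family, EGR and KLF and upstream kinase lists below also had their lowest sum in wild-type ethanol library 3. The MYC network, MYC target, AP-1 target, clock and heat shock lists did not. The values of the 9 genes added up to 11820, 9322, 3246 and 9197 in wild-type ethanol libraries 1 to 4 and to 1576 to 2884 in wild-type controls. In knockout livers they added up to 7550, 7856, 3953 and 5705 on ethanol and to 1487 to 3066 on control. In each genotype library 3 was thus the one nearest to the controls, yet still above them.

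**Figure D4:**
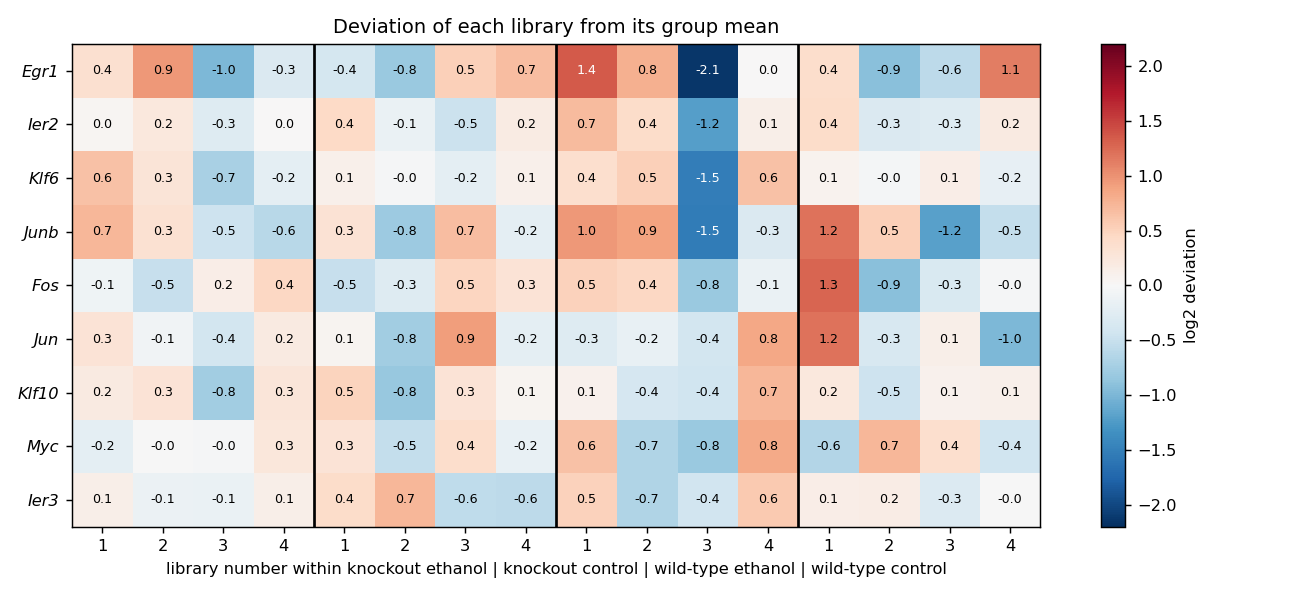
Deviation, printed in each cell, of each library from the mean of its group on the log2(value + 1) scale, for the 9 genes (rows) in the 16 libraries (columns), red above and blue below the mean. Wild-type ethanol library 3 is below its group mean for all 9 genes, with a median of -0.82.

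Taking the deviations from the group means over all 16 libraries, 32 of the 36 pairs of genes had a positive Pearson correlation, with a median r of 0.34 (range -0.17 to 0.78). The points share library, depth and size factor, and the values are a description without a test. The highest was between Egr1 and Ier2, with r = 0.78 (Spearman rho 0.69), followed by Ier2 with Klf6 (r = 0.77), Egr1 with Klf6 (0.68) and Junb with Egr1 (0.64). Over the 8 ethanol libraries these pairs had r = 0.958, 0.874, 0.88 and 0.927, in this order. Over the 8 control libraries they had r = 0.354, 0.436, -0.369 and 0.188. Jun went most closely with Klf10 over all 16 libraries (r = 0.63, rho 0.73), while Jun and Egr1 had r = 0.15. Over the 8 ethanol libraries Ier3 and Myc had r = 0.93, against 0.34 over all 16. Fos and Myc, the members called between genotypes, had r = -0.17 over all 16, with 0.365 over the 8 ethanol and -0.604 over the 8 control libraries. The median r over pairs was 0.50 among the 8 ethanol and 0.13 among the 8 control libraries.

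Across all other genes tested, Zfp36l1, an RNA-binding protein that hastens the decay of AU-rich messages, followed the mean deviation of the 9 genes most closely (r = 0.94, rho 0.91 over 16 libraries, and r = 0.88 without wild-type ethanol libraries 1 and 3, the farthest from the median). Next came Rnmt (r = 0.90), which caps messages, Fbxo4 (0.87), a substrate receptor of a ubiquitin ligase, Btg2 (0.87), an antiproliferative immediate early gene, and Ccnl1 (0.86), a cyclin linked to splicing. Mark2 (0.85), Chac1 (0.85), Tmem161b (0.83), Rbm18 (0.83) and Casc3 (0.83) completed the top 10. Of these, Btg2 changed most on ethanol: it had 1501, 1169, 594 and 893 in knockout ethanol and 163 to 253 in knockout control libraries (2.21, limma adjusted p = 0.01). In wild-type livers Btg2 had 4543, 2209, 297 and 1995 on ethanol, again lowest in library 3, and 104 to 178 on control (3.41, adjusted p = 0.000168). Without wild-type ethanol libraries 1 and 3 the r of the other 9 genes was lower too, at 0.74 for Rnmt, 0.73 for Fbxo4, 0.64 for Btg2, 0.71 for Ccnl1, 0.78 for Mark2, 0.59 for Chac1, 0.58 for Tmem161b, 0.56 for Rbm18 and 0.64 for Casc3.

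Other members of the AP-1 family were read beside the 9 genes. Counts in this and the following lists are of called genes, to be read beside the shares over all genes tested. On ethanol 10.2% were called higher and 9.01% lower in knockout livers, and 18.9% and 19% in wild-type livers. Between genotypes 6.13% were called higher and 3.75% lower in knockouts after ethanol, and 6.4% and 5.24% on control diet. For the difference of ethanol effects 0.347% were called. Of 13 AP-1 family genes listed, 9 were tested; 6 rose and 0 fell in knockout livers (median 1.20), and 7 rose and 1 fell in wild-type livers (median 1.29). Jund, the AP-1 subunit with the steadiest expression, had 599.7 to 991.2 on ethanol and 327.8 to 501.4 on control in knockout livers (1.01, limma adjusted p = 0.00405), and 500.7 to 1033 on ethanol and 174.4 to 284.0 on control in wild-type livers (1.83, adjusted p = 1.02e-05). Fosl2 rose by 1.33 in knockout (adjusted p = 0.000549) and by 1.68 in wild-type livers (adjusted p = 2.16e-05). Fosb, which resembles Fos, was called between genotypes after ethanol: it had 40.3, 29.6, 83.1 and 123 in knockout and 9.83, 25.6, 8.36 and 7.33 in wild-type libraries, with no overlap (2.30, adjusted p = 0.0149). Fosb was also called higher in knockout than in wild-type controls, with 3.11 to 21.2 in knockouts and 0 to 2.08 in wild types (2.17, adjusted p = 0.0193). The ethanol effects on Fosb in the 2 genotypes were not called apart.

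Atf3, a stress-induced partner of JUN, had 1157, 897, 977 and 1028 in knockout ethanol libraries and 297, 137, 305 and 151 in knockout controls, with no overlap (2.27, limma adjusted p = 0.0193). In wild-type livers it had 502, 260, 190 and 3550 on ethanol and 16.8, 10.9, 31.8 and 10.4 on control (5.03, adjusted p = 2.02e-05). Library 4 of the wild-type ethanol group stood far above the other 3, and it was also the highest of its group in Jun, Ier3, Klf6, Klf10 and Myc. On control diet Atf3 was higher in knockout than in wild-type livers by 3.64 (adjusted p = 0.00134), with no overlap, as Myc was.

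Among 39 tested genes of the wider immediate early response, 12 rose and 1 fell on ethanol in knockout livers (median 0.61), and 22 rose and 1 fell in wild-type livers (median 0.97). The gene that fell in both was Irf1, an interferon-responsive factor. The MAP kinase phosphatases Dusp4 and Dusp5, which switch off ERK, rose in both genotypes: Dusp4 by 2.15 in knockout (limma adjusted p = 3e-05) and 3.01 in wild-type livers (adjusted p = 2.7e-07), and Dusp5 by 2.46 in knockout (adjusted p = 0.00211) and 3.80 in wild-type livers (adjusted p = 1.81e-05). The orphan nuclear receptor Nr4a1 rose by 2.26 in knockout (adjusted p = 6.84e-05) and 2.57 in wild-type livers (adjusted p = 5.86e-06). Ier5 was the 1 of 39 with a called difference between the ethanol effects (-1.33, adjusted p = 0.0356). Like Myc, Ier5 was higher in knockout than in wild-type controls (87.1 to 101 in knockout and 30.1 to 42.0 in wild-type controls, a difference of 1.38, adjusted p = 7.75e-05) and close in the ethanol groups (144 to 185 in knockout and 116 to 240 in wild-type livers).

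Of 12 tested EGR and KLF relatives, 3 rose and 0 fell on ethanol in knockout livers, where 10.2% of all genes rose and 9.01% fell. In wild-type livers 4 rose and 3 fell, where 18.9% of all genes rose and 19% fell. Klf4 rose by 1.63 in knockout (limma adjusted p = 0.00205) and 1.55 in wild-type livers (adjusted p = 0.00106), and Klf2, the flow-responsive factor of endothelium, by 1.11 in knockout (adjusted p = 0.0211) and 1.45 in wild-type livers (adjusted p = 0.00187). Klf12 fell by 1.32 in wild-type livers (adjusted p = 0.000222) and was lower in knockout than in wild-type controls (-1.05, adjusted p = 0.00556). Between genotypes after ethanol 0 of 12 were called by limma.

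Of 23 kinases and SRF-linked factors that act upstream, 7 rose and 0 fell on ethanol in knockout livers, where 10.2% of all genes rose and 9.01% fell. In wild-type livers 10 rose and 4 fell, where 18.9% of all genes rose and 19% fell. Map3k5, the stress kinase ASK1, rose by 0.83 in knockout (limma adjusted p = 0.00839) and 1.32 in wild-type livers (adjusted p = 0.0001), and after ethanol it was lower in knockout livers (-0.71, adjusted p = 0.0305), as was Elk4, an SRF partner (-0.57, adjusted p = 0.00413). Srf itself had 185.8 to 256.7 on ethanol and 113.1 to 133.8 on control in wild-type livers (0.87, adjusted p = 0.000148). In knockout livers Srf had 144.1 to 219.4 on ethanol and 146.8 to 174.9 on control, which overlapped and was not called.

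Among 25 tested genes that MYC is known to drive, many of them nucleolar, 1 rose and 1 fell on ethanol in knockout livers, and 9 rose and 0 fell in wild-type livers. On control diet 7 of 25 were higher in knockout livers and 0 lower. Odc1, the first enzyme of polyamine synthesis, rose on ethanol by 0.94 in knockout (limma adjusted p = 0.000333) and 1.40 in wild-type livers (adjusted p = 2.53e-06). Nop58, a core protein of box C/D nucleolar particles, had 710 to 880.6 on ethanol and 614.4 to 740.3 on control in knockout livers, and 856 to 1473 on ethanol and 247.5 to 483.2 on control in wild-type livers. It rose in wild-type livers by 1.55 (adjusted p = 1.09e-05), was higher in knockout than in wild-type controls by 0.86 (adjusted p = 0.00586), and was the 1 of 25 with a called difference between ethanol effects (-1.26, adjusted p = 0.045). Of the 13 tested genes of the MYC and MAX network, 1 rose and 2 fell on ethanol in knockout livers and 5 rose and 5 fell in wild-type livers. Of all genes 10.2% rose and 9.01% fell in knockout livers, and 18.9% rose and 19% fell in wild-type livers. Mlxipl, which codes for the carbohydrate-response factor ChREBP, fell by 1.04 in knockout (adjusted p = 0.000194) and by 0.95 in wild-type livers (adjusted p = 0.000122).

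Among 11 tested genes known as AP-1 targets, 6 were higher in knockout than in wild-type livers after ethanol and 0 lower. Of all genes tested 6.13% were called higher and 3.75% lower. The median of the 11 was 1.45, beside -0.02 over all genes tested. The 6 were Lgals3, Cd44, Mmp12, Plau, Ccnd1 and Ccl2. Lgals3, the galectin of macrophages, differed by 2.81 (limma adjusted p = 1.34e-06) and Mmp12, macrophage elastase, by 3.46 (adjusted p = 0.000773). On control diet 4 were higher and 0 lower, Lgals3 and Mmp12 among them (1.92, adjusted p = 0.000115, and 2.76, adjusted p = 0.00544). Several of these are expressed by macrophages, whose markers differed between the same groups as given beside Fos, and the part of those cells was not tested. On ethanol relative to control, Hmox1 and Plaur rose in both genotypes and 0 of 11 fell in either. Hmox1, which breaks down haem, rose by 2.48 in knockout (adjusted p = 0.00177) and by 3.38 in wild-type livers (adjusted p = 4.31e-05).

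**Figure D5:**
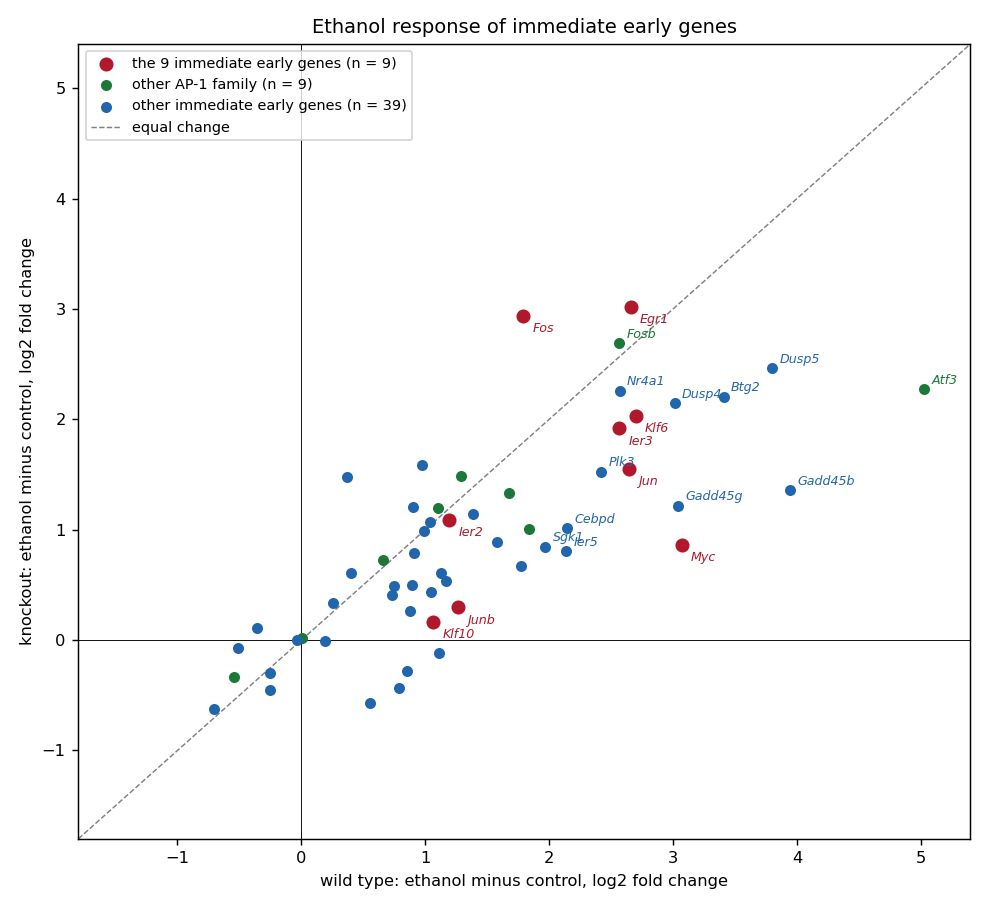
Difference between ethanol and control on the log2(value + 1) scale in knockout (vertical axis) and wild-type livers (horizontal axis) for the 9 genes, 9 other AP-1 family genes and 39 other immediate early genes, with a dashed line of equal change. Fos (2.94 and 1.79) and Egr1 (3.02 and 2.66) lie above the line, and the other 7 of the 9 genes lie below it, Myc (0.86 and 3.07) farthest.

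The lists of heat shock and clock genes, which move with handling or time of day, were read beside the members. Of 7 tested heat shock genes, 1 rose and 1 fell on ethanol in knockout livers and 2 rose and 0 fell in wild-type livers. Their summed values in wild-type ethanol libraries 1 to 4 were 6071, 6898, 8450 and 3670, so library 3, the lowest in the members, was the highest here. Of 14 tested clock genes, 3 rose and 3 fell in knockout and 4 rose and 6 fell in wild-type livers. Of all genes tested 10.2% rose and 9.01% fell in knockout livers, and 18.9% rose and 19% fell in wild-type livers. The part of collection time or handling in the members' levels was not tested.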

How the data were processed

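Per the labels' protocols, RNA from snap-frozen liver was prepared with Trizol and read as single 75 bp Illumina reads. HISAT2 2.1.0.13, HTSeq, edgeR and the build GRCm38 are named in the submitters' processing notes; the sources used here give neither the annotation release nor the strand setting. The deposited values are a signal per gene, taken here to be read counts divided by 1 size factor for each library. All values of a library were whole multiples of its step (100% within 0.01 of a read), which gave back the reads, 11425136 to 13864862 per library. Libraries of the same group all differed by more than sampling noise (mean chi-square per gene at least 10.9).

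Identifiers were matched to symbols for 27233 of 27288 genes, and to GENCODE M21 coordinates. The test was limma 3.58.1 (R 4.3.3) with a mean-variance trend on log2(value + 1), for genes with a mean of at least 10, in 1 fit of 4 group means with 5 contrasts, and Benjamini-Hochberg adjustment over 13256 genes at 0.05. A log2 difference on this scale understates the change of a low gene. The limma fit was tested on simulated data with known changes. Levels per kilobase use the union of annotated exons. Every member was named in every comparison, with up to 3 called genes of smallest p from each related list and the 10 genes of highest likeness; Clec4f, Irf1, Plau and Ccnd1 were named after their values were seen. The values of 1 gene on the list of AP-1 targets are not reported here. The members and the lists of related genes and markers were chosen with earlier results of these data known, so counts over them are descriptions.

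The main fit had no block. Library numbers were tried as pairs in an alternative fit for the genotype comparison after ethanol, from the data alone. Same-numbered knockout and wild-type libraries had r = 0.115, 0.246, 0.219 and 0.102 across genes, which are not independent replicates. Libraries of different numbers had r from -0.25 to 0.199, so the values of numbers 1 and 4 lie inside that range. No label says what is shared by a number. For the other comparisons same-numbered libraries had r from -0.125 to 0.0361. Alternatives were other pseudocounts, other filters, no trend, fewer groups in the fit, the replicate block, TMM factors, subsets of the ethanol libraries, each library left out, and edgeR 4.0.16 and DESeq2 1.42.0 on the whole reads.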

Additional observations from a re-analysis of the deposited data

Results flagged for a closer look

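Among the 36 sets of 4 libraries examined (9 genes in 4 groups), 2 held a library whose gap to its nearest neighbour, relative to the range of the group, passed Dixon's 95% critical value; chance alone does this in about 1 group of 20. Jun had 2021 normalised reads in wild-type ethanol library 4, next to 1011 in the nearest library of that group (gap over range 0.866). Klf10 had 368.2 in knockout ethanol library 3, next to 724.9 in the nearest library of that group (gap over range 0.867). Gaps were taken on normalised reads, not on the log2(value + 1) scale of the other results. On that scale the sets that pass can differ.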

How the results depend on the processing

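The counts of members called moved as follows. Between genotypes after ethanol limma called 1 of 9, against 2 with the replicate block in all groups or in the ethanol groups alone, 0 without knockout ethanol libraries 1 and 4, 0 with ethanol libraries 1 and 2 only, 3 with DESeq2, and 0 to 1 with each library left out in turn. On control diet it called 1, against 2 with only the groups compared, with the replicate block or with DESeq2 (Klf6 in each), and 1 to 2 with each library left out. On ethanol the count was 8 in wild-type livers, against 5 with ethanol libraries 3 and 4 only (Fos, Egr1 and Ier2 lost) and 8 to 9 with each library left out. In knockout livers it was 6, against 4 to 6 with each left out. Without knockout ethanol libraries 1 and 4, or with ethanol libraries 3 and 4 only, Jun and Ier2 were no longer called there. With only the groups compared, Myc was called there as well (limma adjusted p = 0.0128). For the difference of ethanol effects the count was 0, against 1 with DESeq2 and 0 to 1 with each library left out. Between genotypes after ethanol the block changed no call other than that of Klf10. It also called Junb in wild-type livers (limma adjusted p = 0.0327), in a comparison where same-numbered libraries had r from -0.125 to -0.0253. Ier3 fell below the floor of 50 and has no value there.

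Differences that were not called changed sign as follows, and the cause was not tested. Without knockout ethanol libraries 1 and 4, Jun between genotypes after ethanol came to -0.10 and Klf10 on ethanol in knockouts to -0.068. With ethanol libraries 1 and 2 only, Myc between genotypes after ethanol came to -0.036 and the difference of ethanol effects of Egr1 to -0.055. With ethanol libraries 3 and 4 only, the values after ethanol between genotypes were -0.19 for Jun, 0.015 for Egr1 and 0.16 for Ier2, those on ethanol in knockouts were -0.24 for Junb and -0.089 for Klf10, and the difference of effects of Ier2 was 0.30. Myc between genotypes after ethanol was -0.079 with edgeR and -0.10 with DESeq2. Klf10 between genotypes on control diet was 0.0015 with TMM factors, 0.069 with edgeR and 0.0498 with DESeq2.
With each library left out in turn, the ranges between genotypes after ethanol were -0.21 to 0.35 for Myc, -1.11 to 0.051 for Egr1 and -0.14 to 0.60 for Klf6. Those on control diet were -0.17 to 0.27 for Klf10, -0.29 to 0.011 for Ier2, -0.43 to 0.0028 for Ier3 and -0.17 to 0.63 for Junb. That on ethanol in knockouts was -0.11 to 0.42 for Klf10, and those of the difference of effects were -0.51 to 0.12 for Ier2 and -0.35 to 0.81 for Egr1.
Over all genes tested the calls ran from 434 to 1704 around 1310 between genotypes after ethanol, from 922 to 1924 around 1544 on control diet, from 1003 to 3028 around 2543 on ethanol in knockouts, from 3164 to 5150 around 5032 in wild types and from 0 to 265 around 46 for the difference of effects. No scaling moved the median of all genes by over 0.1.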
